A study of Mus musculus with 5 samples.

Results

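The genes described here carry a secretory stimulus from the surface of the pancreatic acinar cell to the fusion of its enzyme granules. They are 9 of the 23284 gene symbols in the count tables, taken by name: Cckar, Chrm3, Itpr3, Rab3d, Rab27b, Vamp2, Vamp8, Stx3 and Stxbp2. RNA was sequenced from primary acinar cells of C57BL/6 mice aged 8 weeks. The control group was 2 libraries of genotype p48-Cre, and the knockout group was 3 libraries of genotype Arid1afl/fl;p48-Cre. Both groups therefore carry Cre, which is driven from p48 (Ptf1a) in the pancreatic lineage and not in acinar cells alone. In knockouts it also cuts the floxed alleles of Arid1a, which encodes a DNA-binding subunit of the SWI/SNF remodeller. Nothing in the labels states that each library came from a separate mouse, so the p-values measure the spread between libraries, which may be technical. The comparison asks how RNA levels in acinar cells differ when Arid1a is deleted.

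Acinar cells make digestive enzymes and keep them in zymogen granules under the apical membrane until a meal. Cholecystokinin and acetylcholine then act on receptors that couple to Gq, phospholipase C forms inositol trisphosphate, and calcium leaves the endoplasmic reticulum near the apical pole. Calcium lets SNARE proteins on the granule pair with SNARE proteins on the plasma membrane, under the control of Rab GTPases and of Sec1/Munc18 proteins, and the granule empties into the duct lumen.

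The control libraries were shallow. Of all control counts, 72.6% and 82.2% fell on Rn45s, the precursor of ribosomal RNA, against 6.78% to 10.9% in knockouts. Lars2 took at most 5.61% of any library. Without these 2 genes the controls held 67514 and 72006 counts and the knockouts 3155357 to 3568906. Levels below are counts per 1000000 (CPM) of a library's total without Rn45s and Lars2. The detection floor, taken as 3 counts, was 44.4 CPM in control 1, 41.7 CPM in control 2, 21.5 CPM over both controls together, and at most 0.951 CPM in a knockout. Depth and the Rn45s share divided the libraries exactly as genotype did, so an effect of genotype and an effect of library quality cannot be told apart. Arid1a itself had 0 and 3 counts in controls and 44, 121 and 42 in knockouts, and a whole-gene count also includes exons outside the floxed part, so it does not check the labels. Of 11 acinar markers, 9 were detected in each control and 10 in each knockout, and they summed to 314260 and 384120 CPM in controls and to between 379160 and 408120 CPM in knockouts. Amy2a5 had no count in any library.

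Together the 9 genes had 90 and 48 counts in controls and 1725, 2692 and 1316 in knockouts. This made 1333 and 667 CPM in controls and 547, 754 and 393 CPM in knockouts. The groups overlapped in this sum. In knockouts every member had a count in all 3 libraries. In control 1 there were 7 members with a count and in control 2 there were 5. The mean knockout level of 5 members (Chrm3, Itpr3, Rab27b, Vamp2 and Stx3) lay under the floor of either control taken alone. For these 5, a control library with the pooled knockout level would be expected to give fewer than 3 counts.

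**Figure D1:**
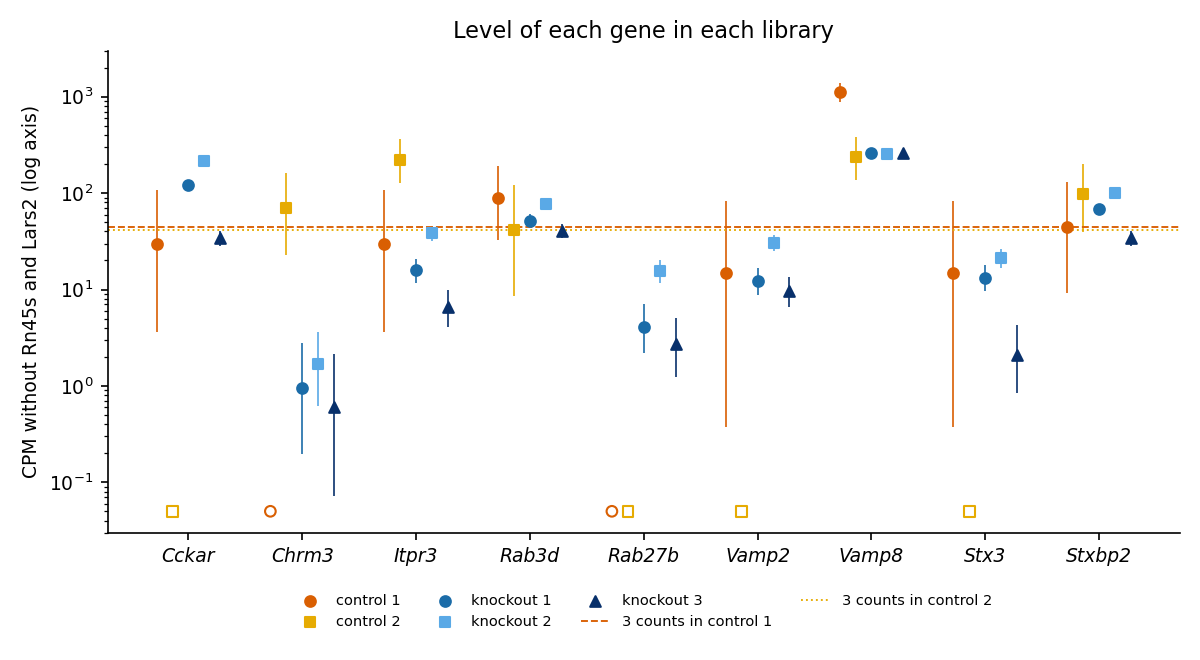
CPM of each gene (log axis) in the 2 control libraries (orange, yellow) and 3 knockout libraries (blues), with exact 95% Poisson intervals for counting error; open symbols at the bottom mark 0 counts, and the horizontal lines mark 3 counts in each control. Vamp8 lies between 255 and 263 CPM in all 3 knockouts, Cckar runs from 34.1 to 216 CPM in knockouts, and both controls of Rab27b, Vamp2 and Stx3 lie below the lines.

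No member was called by the edgeR test of knockout against control, the main test here. This edgeR quasi-likelihood test with Benjamini-Hochberg adjustment was fitted over 8261 genes, of which 4 (0.0484%) were called higher and 24 (0.291%) lower in knockouts at an adjusted p under 0.05. Of the 9 members, 8 passed the low-count filter, and Chrm3 did not. At an unadjusted p under 0.05 there were 2 members (Cckar and Vamp2) of 8, against 34.4% of all genes tested. DESeq2 called 1 of the 8, Cckar, as it did 12.7% of all genes. With limma-voom 0 were called, and 3 of the 8 had an unadjusted p under 0.05, against 22.3% of all genes. The median log2 fold change was 1.95 over the 8 tested members and 2.05 over all tested genes, and 4 of the 8 lay above the latter, so a fitted value near 2 was that of a typical gene. In CPM, 2 of the 8 tested members (Cckar and Rab27b) were higher in every knockout than in every control, as were 37.0% of all genes tested. With each control set at no less than its floor, 0 of 8 members and 1.77% of genes met this rule. No member was lower in every knockout, against 11% of genes.

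**Figure D2:**
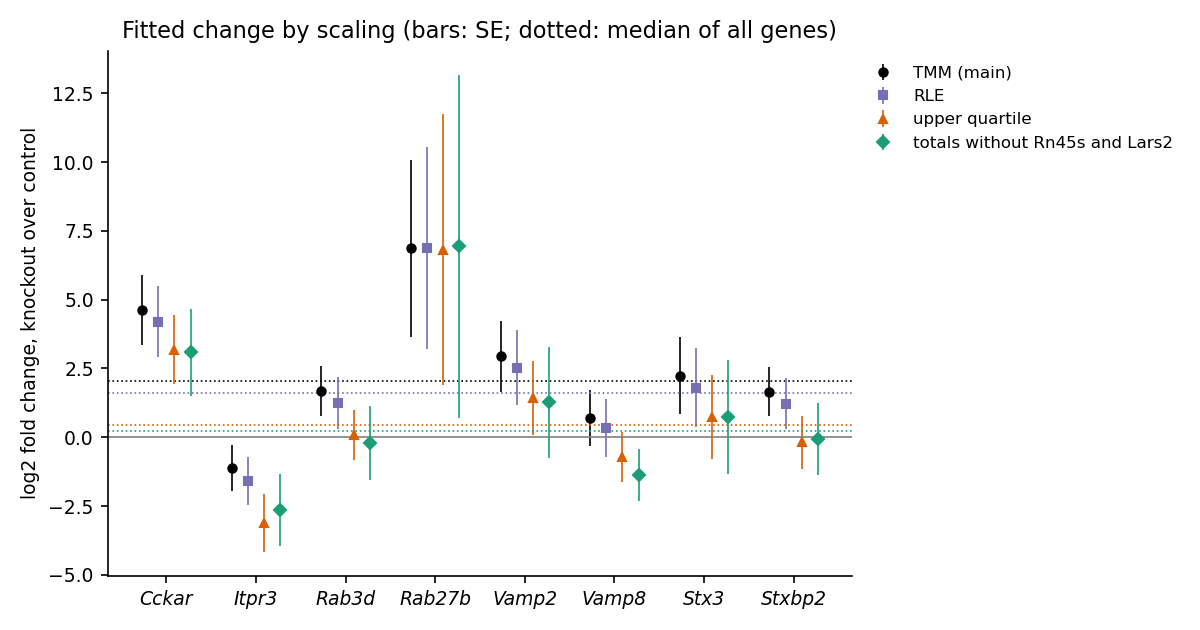
Fitted log2 fold change of knockout over control with its SE for the 8 tested genes under 4 scalings; dotted lines give the median over all genes in the same fit. Cckar lies above that median and Itpr3 below it under all 4 scalings, while Rab3d, Stxbp2 and Vamp8 cross 0.

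Cckar, the cholecystokinin receptor of the acinar cell, had the smallest p of the members. It had 2 and 0 counts in controls and 384, 772 and 114 in knockouts. Its level was 29.6 and 0 CPM in controls and 122, 216 and 34.1 CPM in knockouts. All 3 knockouts lay above both controls, but knockout 3 (exact 95% Poisson interval 28.1 to 40.9 CPM) lay inside the interval of control 1 (3.59 to 107 CPM). Pooling the libraries of each group gave 14.3 CPM for control and 126 CPM for knockout, a ratio of 8.80 (exact 95% interval 2.43 to 72.7). This interval and those that follow cover counting error alone. The ratio was 4.26 without control 2 and 5.34 without knockout 2, and without control 1 no control count is left. On totals that include Rn45s and Lars2 the pooled ratios of all members with a control count are larger by one factor, which gives 50.3 for Cckar, 14.3 for Vamp2, 9.82 for Stx3, 5.43 for Stxbp2, 5.03 for Rab3d, 2.24 for Vamp8, 0.920 for Itpr3 and 0.174 for Chrm3. At the pooled knockout share the 2 controls would have held 17.6 counts of Cckar. In edgeR the log2 fold change was 4.63 ± 1.26 (SE) with an adjusted p of 0.0636, with a positive difference in 3 of 3 knockouts. The adjusted p ran from 0.00818 to 0.433 over the alternatives. Cckar passed with no low-count filter (0.00818), with a filter of 1 CPM in 2 libraries (0.0473), with DESeq2 (0.00873) and without knockout 3 (0.0205, edgeR). These settings called more genes in all than the main test: 10.5% of all genes with no filter, 4.31% with 1 CPM in 2 libraries, 12.7% with DESeq2 and 7.77% without knockout 3.

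Chrm3, a muscarinic acetylcholine receptor through which vagal nerves act on acinar cells, was the scarcest member in knockouts. Its counts were 3, 6 and 2 there, or 0.951, 1.68 and 0.598 CPM. In the controls it had 0 counts in control 1 and 5 in control 2, or 69.4 CPM. Control 2 stood above all knockouts and control 1 at 0, so the groups overlapped. The pooled ratio of 0.0305 (exact 95% interval 0.00976 to 0.112) rests on the 5 counts of control 2, and it was 0.0157 without control 1. With no low-count filter the edgeR log2 fold change was -2.94 with an adjusted p of 0.151. In each knockout library Cckar had the higher level per kb of exon, 33.1 against 0.219 CPM per kb in knockout 1, 58.7 against 0.388 in knockout 2 and 9.26 against 0.138 in knockout 3. Over both controls together Cckar had 2 counts and Chrm3 had 5. Chrm1, a related muscarinic receptor, had 9 and 0 counts in controls and 8, 21 and 23 in knockouts.

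Itpr3 encodes an inositol trisphosphate receptor, the channel through which the second messenger releases calcium at the apical pole. It had 2 and 16 counts in controls, or 29.6 and 222 CPM, and 50, 137 and 22 counts in knockouts, or 15.8, 38.4 and 6.58 CPM. Control 2 lay above every knockout, and control 1 lay between knockout 1 and knockout 2. The pooled ratio was 0.161 (exact 95% interval 0.0993 to 0.277), and it was 0.701 without control 2 and 0.0934 without control 1. Without knockout 2 it was 0.0859. In the edgeR test the log2 fold change was -1.12 ± 0.844 (SE, adjusted p = 0.323), and without control 2 it was 1.08. The related channels had fewer counts in knockouts, with 10, 39 and 6 for Itpr1 and 6, 44 and 5 for Itpr2. Per length of exon, Itpr3 stood 4.17-fold above Itpr1 and 4.98-fold above Itpr2 in the pooled knockouts. An antisense gene, Itpr3os, shares 2.59% of the exonic length of Itpr3 and is not among the counted symbols, and reads of the 2 strands cannot be told apart.

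Control 2 held most of the control counts of Chrm3 (5 of 5), Itpr3 (16 of 18) and Stxbp2 (7 of 10). Olfactory and vomeronasal receptor genes, which belong to sensory neurons, give a measure of counts from genes outside the acinar programme. The 1451 such genes summed to 1511 and 1417 CPM in controls and to 11.7, 19.6 and 32.6 CPM in knockouts. In control 2, 7 of them had at least the 5 counts of Chrm3 and 2 had at least the 16 counts of Itpr3, and the highest had 21. In control 1, where Chrm3 had 0 counts, 9 of them had at least 5 counts, 0 had at least 16 and the highest had 11. Their part in the control levels of Chrm3 and Itpr3 was not tested.

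Rab3d, the granule-bound GTPase of the mature zymogen granule, had overlapping levels in the 2 groups. It had 6 and 3 counts in controls, or 88.9 and 41.7 CPM, and 163, 273 and 136 counts in knockouts, or 51.7, 76.5 and 40.7 CPM. The knockouts lay between the 2 controls except for knockout 3, which lay just under control 2. The pooled ratio was 0.881 (exact 95% interval 0.461 to 1.94), and it turned to 1.36 without control 1. In the edgeR test the log2 fold change was 1.66 ± 0.908 (SE, adjusted p = 0.191), under the median of all genes, and it was -0.21 with library totals in place of TMM.

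Rab27b, a GTPase that acts with Rab3d on granule docking and release, had no count in either control. It had 13, 55 and 9 counts in knockouts, or 4.12, 15.4 and 2.69 CPM. All of these lie under the floor of 21.5 CPM over both controls. The pooled knockout share would give 1.07 control counts, so this depth could not show a lower level in controls. In the edgeR fit its log2 fold change of 6.87 ± 3.21 (SE, adjusted p = 0.147) rests on controls at 0 and is no measure of size. Of all genes tested, 35.1% had no control count. Rab27a, its close relative, had 8, 33 and 3 counts in knockouts and none in controls. Per length of exon Rab27b was 0.737 times Rab27a in the pooled knockouts, and Rab3d was 14.1 times Rab27b.

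Vamp8, the granule SNARE used when granules fuse with each other and late in secretion, had the highest level per kb of exon among the members in every library. It had 75 and 17 counts in controls, or 1111 and 236 CPM, and 816, 909 and 880 counts in knockouts, or 259, 255 and 263 CPM. The 3 knockouts were nearly level and lay between the 2 controls, close to control 2. Their mean was 259 ± 4.19 CPM (SD, n = 3), against 673 ± 619 CPM (SD, n = 2) in controls. The pooled ratio was 0.392 (exact 95% interval 0.319 to 0.488), but it turned to 1.10 without control 1 and was 0.233 without control 2. The edgeR log2 fold change was 0.72 ± 1.02 (SE, adjusted p = 0.61), and it was -1.38 with library totals, -0.71 with upper quartile factors and -0.21 without knockout 3.

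Vamp2, the granule SNARE that takes part in the first fusion events, was scarcer. It had 1 and 0 counts in controls, or 14.8 and 0 CPM, and 39, 109 and 32 counts in knockouts, or 12.4, 30.5 and 9.57 CPM. Control 1 lay between knockout 1 and knockout 2. The pooled ratio was 2.49 (exact 95% interval 0.442 to 99.1), and 2.49 control counts would be expected at the knockout share. It was 1.21 without control 2 and 1.52 without knockout 2. The edgeR log2 fold change was 2.94 ± 1.30 (SE, adjusted p = 0.13). Per length of exon, Vamp8 stood 25.6-fold above Vamp2 in knockout 1, 10.2-fold in knockout 2 and 33.6-fold in knockout 3. On the CPM scale Vamp2 varied between these libraries and Vamp8 stayed nearly level.

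Stx3, the syntaxin of the granule membrane and apical surface, had 1 and 0 counts in controls, or 14.8 and 0 CPM. In knockouts it had 42, 75 and 7 counts, or 13.3, 21.0 and 2.09 CPM. Control 1 lay between knockout 1 and knockout 2, and knockout 3 lay well under the other knockouts. The pooled ratio was 1.72 (exact 95% interval 0.303 to 68.4), but it turned to 0.831 without control 2 and was 1.05 without knockout 2. The edgeR log2 fold change was 2.24 ± 1.40 (SE, adjusted p = 0.241). Stx4a, the syntaxin of the basolateral membrane, had 49, 115 and 34 knockout counts, and Stx3 was 0.213 times as abundant per length of exon in the pooled knockouts.

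Stxbp2, the Sec1/Munc18 protein that binds Stx3, had 3 and 7 counts in controls, or 44.4 and 97.2 CPM. In knockouts it had 215, 356 and 114 counts, or 68.1, 99.8 and 34.1 CPM. The controls lay among the knockouts. The pooled ratio of 0.949 (exact 95% interval 0.513 to 1.99) turned to 1.53 without control 2 and was 0.70 without control 1. The edgeR log2 fold change was 1.65 ± 0.89 (SE, adjusted p = 0.187), and it was -0.18 with upper quartile factors and -0.077 with library totals. Its relative Stxbp3a was scarce in knockouts, with 11, 28 and 0 counts. Per length of exon Stxbp2 stood 23.6-fold above Stxbp3a in the pooled knockouts.

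**Figure D3:**
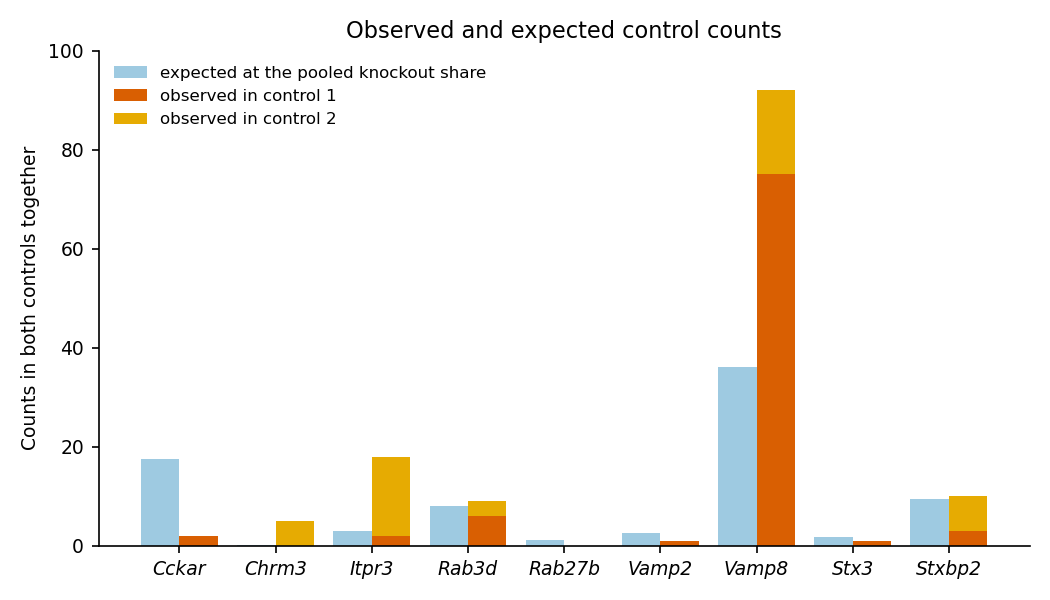
Counts of each gene observed in both controls together (control 1 and control 2 stacked) beside the number expected if the controls had the pooled knockout share. Cckar had 2 counts where 17.6 would be expected, Itpr3 had 18 against 2.90, Vamp8 had 92 against 36.1, and Rab3d and Stxbp2 had 9 against 7.93 and 10 against 9.49.

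Levels per kb of exon put the members in order within knockouts. Vamp8 came first with 112 ± 1.81 CPM per kb (SD, n = 3), and its range did not overlap that of the next gene, Cckar, at 33.7 ± 24.8. Stxbp2 followed with 23.2 ± 11.3, Rab3d with 14.2 ± 4.64 and Vamp2 with 6.19 ± 4.03 CPM per kb. Stx3 had 2.69 ± 2.1, Itpr3 2.25 ± 1.82, Rab27b 0.984 ± 0.926 and Chrm3 0.248 ± 0.127 CPM per kb. Below Vamp8, each gene's range over the 3 knockouts overlapped that of its neighbour in this order. Cckar lay above Stxbp2 in 2 of 3 libraries and Stx3 above Itpr3 in 2 of 3, and the other neighbours kept their order in 3 of 3.

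The make-up of the counts of the 9 genes does not depend on the scaling of a library. Vamp8 took 83.3% of them in control 1 (95% Wilson interval 74.3% to 89.6%) and 35.4% in control 2 (23.4% to 49.6%). In knockouts it took 47.3%, 33.8% and 66.9%. Cckar took 2.22% and 0% in controls and 22.3%, 28.7% and 8.66% in knockouts, and a share of 0 of 48 counts allows up to 7.41% by the Wilson interval. Knockout 3 (7.26% to 10.3%) thus lay partly within the interval of control 1 (0.612% to 7.74%). Rab3d took 6.67% and 6.25% in controls and 9.45%, 10.1% and 10.3% in knockouts, a narrower range than that of either gene.

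**Figure D4:**
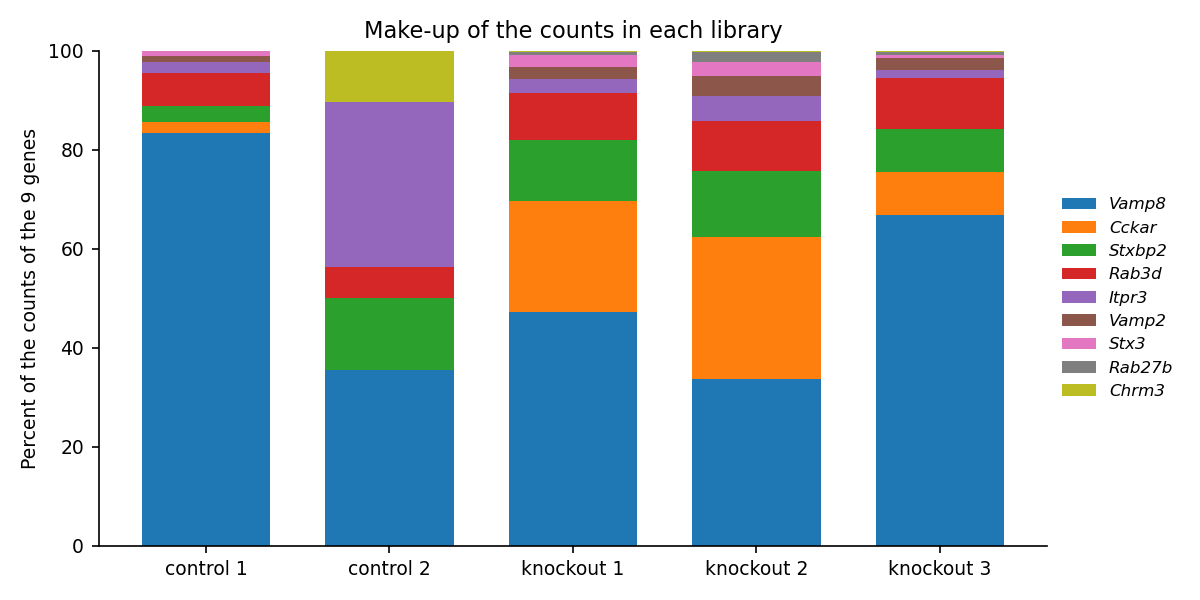
Percent of the summed counts of the 9 genes taken by each gene in each library. Vamp8 (blue) takes from 33.8% to 83.3%, Cckar (orange) is large in knockouts 1 and 2, and control 2 differs from all other libraries by its shares of Itpr3 and Chrm3.

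With at least 100 knockout counts, 6 of 7 members (Cckar, Itpr3, Rab3d, Vamp2, Stx3 and Stxbp2) were highest in knockout 2 and lowest in knockout 3. This order held for 80.1% of the 4154 genes with that many counts, so the members' share is close to that of genes in general. The ratio of knockout 2 to knockout 3 was 10.0 for Stx3 (exact 95% interval 4.64 to 25.8), 6.35 for Cckar (5.21 to 7.80), 5.84 for Itpr3 (3.70 to 9.62), 3.19 for Vamp2 (2.14 to 4.90), 2.93 for Stxbp2 (2.36 to 3.65) and 1.88 for Rab3d (1.53 to 2.33). Its median was 3.19 over the 7 members and 3.84 over 4126 genes. For Vamp8 the ratio was 0.968 (0.882 to 1.06), and 6.45% of genes had a ratio at or below it.

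The share of digestive enzyme and granule genes ran opposite to this order among the knockouts. The 37 genes of that list took 78.1%, 66.6% and 86.2% of the counts of knockouts 1, 2 and 3 left without Rn45s and Lars2, and 65.9% and 69.7% in controls. With their counts also taken out of the total, a scaling added after the data were examined, the ratio of knockout 2 to knockout 3 was 4.14 for Stx3, 2.62 for Cckar, 2.41 for Itpr3, 1.32 for Vamp2, 1.21 for Stxbp2 and 0.776 for Rab3d. The ratio for Vamp8 became 0.399, so Vamp8 was level among the knockouts on the first scale and not on this scale. On this scale the median ratio was 1.58 over 4126 genes and 1.32 over the 7 members with at least 100 knockout counts. Among the knockouts, markers of other cells summed highest in knockout 2, on totals without Rn45s and Lars2. Genes in general ran this way on that scale. As given above, 80.1% of genes with at least 100 knockout counts had the order 2 over 1 over 3. The median ratio of knockout 2 to knockout 3 there was 3.84 over 4126 genes. Islet markers summed to 179, 930 and 218 CPM in knockouts, duct markers to 264, 974 and 154 CPM, leukocyte markers to 119, 427 and 83.7 CPM, endothelial markers to 65.3, 90.2 and 18.2 CPM, stellate and fibroblast markers to 25.0, 54.6 and 12.6 CPM, and nerve markers to 3.49, 48.5 and 0.299 CPM. All 9 islet markers, all 6 duct markers and all 8 leukocyte markers were detected in knockout 1 and in knockout 2. In knockout 3, 8 islet, 6 duct and 7 leukocyte markers were detected. The red blood cell markers were at 0 in every library. In the controls the islet sum was 104 and 681 CPM, with Ins2 at 74.1 and 514 CPM, the duct sum was 681 and 500 CPM, the leukocyte sum 163 and 41.7 CPM, and the stellate and fibroblast sum 14.8 and 167 CPM. Endothelial and nerve markers had no control count. Islet cells and nerves also use Vamp2 and Rab27 proteins, and the part of these cells in the members' levels was not tested. In bulk RNA, a change in the number of cells of a type and a change in RNA per cell cannot be told apart.

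**Figure D5:**
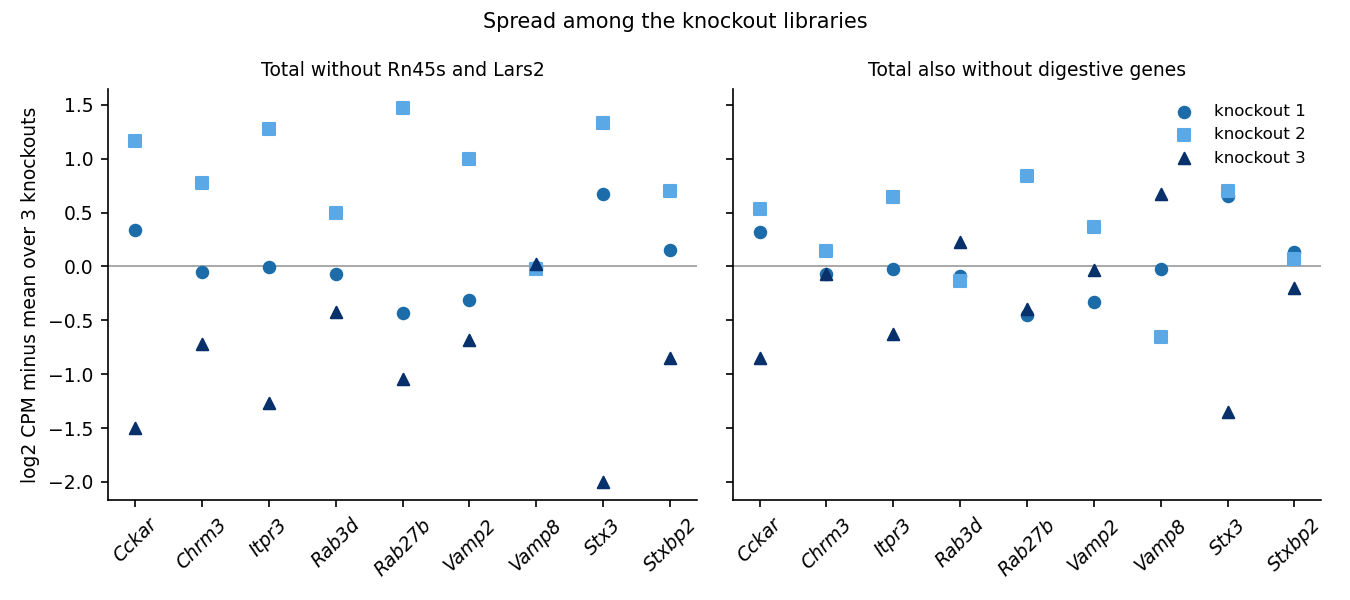
Level of each gene in each knockout library as log2 CPM minus the gene's mean over the 3 knockouts, with the total taken without Rn45s and Lars2 (left) or also without the digestive genes (right). On the left knockout 2 is highest and knockout 3 lowest for 8 of the 9 genes and Vamp8 is flat; on the right the spread of most genes is smaller and that of Vamp8 is larger.

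Genes with the most similar profile over the 3 knockouts were looked up for the 3 members with most knockout counts. The measure was the root mean square difference between centred log2 CPM values, among 570 genes with at least 100 counts in each knockout. With 3 libraries many genes come close, 107 within 0.2 of Vamp8, 23 of Cckar and 87 of Stxbp2. Krt18, a keratin of simple epithelia, was nearest to Cckar at 0.00388, with 1415, 2510 and 394 CPM. Sidt2 lay at 0.0754. The genes nearest to Vamp8 were 2010107E04Rik (0.0285), Bcat2 (0.03) and Cabp2 (0.0319), and those nearest to Stxbp2 were Trpc4ap (0.0158), Lbh (0.0292) and Slc3a2 (0.0349).

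Upstream sequence was read for the 2 members with a window clear of the gene's own annotated exons, Stx3 and Itpr3. They are shown as the upstream sequence of 2 members whose control counts and knockout levels are described above. The sequences are the 250 bases before the RefSeq start on GRCm38.p6, a later build than the mm9 of the counts, at chr19:11819404-11819653 on the minus strand for Stx3 and chr17:27057054-27057303 on the plus strand for Itpr3. Capitals mark E-boxes, CANNTG, the core bound by basic helix-loop-helix factors, a class that includes the acinar factors Ptf1a and Bhlha15. CANNTG is its own reverse complement, so a match covers both strands.
Stx3: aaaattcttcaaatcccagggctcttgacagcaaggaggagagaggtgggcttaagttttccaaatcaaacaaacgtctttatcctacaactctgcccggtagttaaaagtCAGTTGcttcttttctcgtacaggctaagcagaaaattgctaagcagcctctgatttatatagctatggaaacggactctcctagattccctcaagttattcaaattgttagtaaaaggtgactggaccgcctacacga
Itpr3: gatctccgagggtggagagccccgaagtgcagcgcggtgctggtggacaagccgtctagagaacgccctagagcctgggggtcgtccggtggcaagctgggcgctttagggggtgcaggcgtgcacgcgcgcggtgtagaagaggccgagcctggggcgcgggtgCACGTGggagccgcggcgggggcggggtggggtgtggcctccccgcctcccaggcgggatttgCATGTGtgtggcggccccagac
The Stx3 window held 1 E-box (CAGTTG) and the Itpr3 window held 2 (CACGTG and CATGTG), whereas 66.2% of 32851 RefSeq windows of this length held at least 1 and 31.8% at least 2. RefSeq windows were found for 6 of the 9 members, Chrm3, Rab3d, Vamp8, Stx3, Stxbp2 and Itpr3. Among the windows not printed, those of Chrm3, Rab3d and Vamp8 held 0 E-boxes and that of Stxbp2 held 4, a number reached by 3.84% of windows. No window of the 6 held CATATG (3.46% of all windows) or CAGCTG (13.0%), which says only that these letters are not in these bases.

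The wider pathway was described from a list of 81 genes that includes the 9 members. Of its 72 other genes, 51 were tested, 0 were called in either direction, and 8 higher and 2 lower had an unadjusted p under 0.05 in edgeR, against 34.4% of all genes. The counts were the same in limma-voom, against 22.3% of all genes. DESeq2 called 1 higher (Stx4a) and 2 lower (Exoc8 and Rock1) of the 51, against 12.7% of all genes. The counts by role that follow are to be read against the same shares. Their median log2 fold change was 1.17, against 2.05 over all genes, and 18 of the 51 lay above the latter. They summed to 2429 and 1167 CPM in controls and 914, 1953 and 483 CPM in knockouts. In 54 of the 72 genes the knockouts had the order 2 over 1 over 3. The share of 80.1% given above covers only genes with at least 100 knockout counts. The 72 include genes under that limit, such as Grpr with 2, so no like share over all genes stands beside this count.

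Among receptors and G proteins, 7 of 11 were tested with 0 called in edgeR and 0 at an unadjusted p under 0.05. Gnas, the stimulatory G protein subunit downstream of the secretin receptor, had 193 and 97.2 CPM in controls and 77.3, 207 and 48.7 CPM in knockouts. Adcy6, an adenylyl cyclase of the same branch, had 59.2 and 13.9 CPM against 30.1, 64.4 and 6.88 CPM. The groups overlapped for both genes.

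Among genes of calcium release and handling, 12 of 17 were tested with 0 called and 2 higher at that unadjusted p. Calm3, a calmodulin gene, had 14.8 and 27.8 CPM in controls and 27.3, 50.7 and 28.1 CPM in knockouts. Its pooled ratio was 1.67 (exact 95% interval 0.566 to 8.12).

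Among Rab GTPases and their effectors, 8 of 14 were tested with 0 called and 2 higher at that unadjusted p. Rab11a, a GTPase of recycling vesicles, had 133 and 0 CPM in controls and 49.8, 65.6 and 19.7 CPM in knockouts. Rap1b had no control count and 30.1, 63.3 and 2.09 CPM in knockouts, with knockouts 1 and 2 above the floor of 21.5 CPM over both controls and knockout 3 under it (adjusted p = 0.0847, edgeR).

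Among the other SNARE proteins, 6 of 7 were tested with 0 called in edgeR and 2 higher at that unadjusted p. No control count was found for 5 of the 7. These 5 include Stx2, which was not tested, so the 35.1% of all tested genes with no control count is not a like share. Stx4a had 15.5, 32.2 and 10.2 CPM in knockouts and Vamp3, an endosomal relative of Vamp2, had 14.9, 21.9 and 1.49 CPM. Both means lay under the floor of 21.5 CPM, so their difference from controls has no measured size. Their adjusted p-values in edgeR were 0.071 and 0.115, and Stx4a had 0.0458 in DESeq2.

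Among SNARE regulators and tethers, 12 of 17 were tested with 0 called in edgeR and 1 lower at that unadjusted p. Napa, which recycles spent SNARE complexes together with Nsf, had 118 and 13.9 CPM in controls and 69.4, 101 and 55.0 CPM in knockouts. Its pooled ratio was 1.17 (exact 95% interval 0.615 to 2.58). Exoc5, a subunit of the exocyst that tethers vesicles, had 59.2 and 0 CPM against 8.24, 19.3 and 7.17 CPM. Of the granule chaperones and regulators all 6 were tested with 0 called in edgeR and 2 higher and 1 lower at that unadjusted p. Arf6, a small GTPase of the plasma membrane, had 44.4 and 41.7 CPM in controls and 52.3, 94.1 and 24.8 CPM in knockouts, and Actn4, an actin crosslinker, had 148 and 55.6 CPM against 61.5, 113 and 13.8 CPM.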

How the data were processed

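RNA-seq counts of 5 libraries of primary acinar cells were used, 2 control and 3 knockout. The authors deposited whole-number read counts per gene symbol without normalization, 23284 symbols per library. Per the submitters' processing notes, the build was mm9 and the tools were HTSeq 0.9.1, TopHat2 2.1.1, Cuffdiff 2.2.1.5 and Cuffnorm 2.2.1.2. How multiply mapped reads and strand were treated is not given in the sources used here, and the TruSeq v2 kit named in the labels' protocols does not mark strand.

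CPM values divide counts by the library total without Rn45s and Lars2. edgeR 4.0.16 in R 4.3.3 fitted all 5 libraries with group as the term (glmQLFit with robust estimation, glmQLFTest, TMM, filterByExpr, two-sided), and p-values were adjusted by Benjamini-Hochberg over 8261 genes. Alternatives used RLE, upper quartile and total scaling, other filters, DESeq2 1.42.0, limma 3.58.1 (voom), a replicate block and each library left out. Counts for knockout against control were also simulated, from a profile pooled over all 5 libraries at each library's full total, with 200 changed genes planted. Percentages are of the planted genes that passed the low-count filter. For a log2 change of 4 edgeR found 23 of 41 (56.1%), and for 2 it found 1 of 38 (2.63%). For -4 it found 8 of 11 (72.7%) and for -2 it found 3 of 18 (16.7%). Of 8555 genes tested, 8447 were unchanged and 0 of these were called. Every simulated library had the same expected Rn45s share, so these rates do not measure power at the real control depth. Ratio intervals are exact binomial and level intervals exact Poisson, both at 95%. Exonic lengths are unions of GENCODE vM21 basic exons, matched by symbol for 9 of 9 members.

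The members, the gene lists and the tests were chosen with earlier results of these data known. Genes named are all 9 members, Arid1a, Rn45s, Lars2, the 2 most abundant other genes of each pathway role in the knockouts, the most abundant gene of each marker list and for each of 3 members the 3 genes nearest in profile. Not every gene that this rule takes is reported here. Chrm1, Itpr1, Itpr2, Rab27a, Stxbp3a, Amy2a5, Exoc8 and Rock1 were chosen after their values were seen, as were the digestive gene list and the receptor families of sensory neurons.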

Additional observations from a re-analysis of the deposited data

How the results depend on the processing

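Of the 9 members, 0 were called by edgeR in the main setting and in most alternatives, and 1, Cckar, was called with no low-count filter, with 1 CPM in 2 libraries and with DESeq2; leaving out a library gave 0 to 1, the 1 being Cckar without knockout 3. Cckar kept a positive log2 fold change, 3.09 to 11.2, in the 15 alternatives in which it was tested. Against 4 genes called higher and 24 lower, upper quartile factors gave 7 and 283, TMM without Rn45s and Lars2 147 and 71, totals without both 16 and 135, no filter 1076 and 710, 1 CPM in 2 libraries 336 and 131, DESeq2 739 and 311, limma-voom 0 and 0 with 1840 at an unadjusted p under 0.05, genes with at least 10 control counts 47 and 43, totals also without digestive genes 27 and 175 (added after seeing the data), and RLE 6 and 51. Leaving out each library in turn gave 0 to 310 higher and 5 to 163 lower. The replicate block gave 23 higher and 2 lower and no member call. The replicate numbers are not stated to pair samples, and deviations of same-numbered libraries from their group means correlated at -0.0265 and 0.0286. With 2 controls, their deviations are equal and opposite. These 2 values are therefore not independent and cannot decide whether the numbers pair samples.

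The members' median log2 fold change of 1.95 was 0.41 with upper quartile factors, 0.33 with totals, 0.94 over the 3 members with at least 10 control counts, 0.35 without digestive genes, and 1.32 to 2.40 with a library left out. Signs turned for Stxbp2 (-0.18 with upper quartile factors, -0.077 with totals), Rab3d (-0.21 with totals), Vamp8 (-0.71 with upper quartile factors, -1.38 with totals, -0.65 without digestive genes, -0.21 to 2.32 with a library left out, the lowest without knockout 3) and Itpr3 (-1.81 to 1.08 with a library left out, the highest without control 2). The pooled ratio of Vamp8 turned to 2.24 on totals with Rn45s and Lars2 and ran from 0.233 without control 2 to 1.10 without control 1. The 2 members higher in every knockout became 5 on totals with Rn45s and Lars2, 6 on TMM-adjusted CPM, and 0 with each control set at no less than 3 counts (added), a rule that 1.77% of tested genes passed. For these shifts the cause was not tested. Cckar, Chrm3, Rab27b, Vamp2 and Stx3 each had at most 5 counts over both controls. At 14.8 and 13.9 CPM per control count, their control levels are limited by depth. Itpr3 had 2 and 16 control counts.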

Other observations

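In the wider secretory pathway the genes with an unadjusted p under 0.05 and lower fitted levels in knockouts were Exoc8 and Rock1, neither of which passed over all genes in edgeR, while both did in DESeq2 (adjusted p = 0.0285 and 0.0261). Exoc8, an exocyst subunit, had 5 and 3 counts in controls, or 74.1 and 41.7 CPM, and 14, 25 and 4 counts in knockouts, or 4.44, 7.0 and 1.2 CPM. Both controls lay above all 3 knockouts, but control 2 stood at the floor of 3 counts. The pooled ratio of Exoc8 was 0.0745 (exact 95% interval 0.0346 to 0.183, counting error alone), with an adjusted p of 0.104 in edgeR. Rock1, a kinase that acts on the actin cytoskeleton, had 4 and 9 counts in controls, or 59.2 and 125 CPM. In knockouts it had 22, 58 and 7 counts, or 6.97, 16.3 and 2.09 CPM. Its pooled ratio was 0.0927 (0.0515 to 0.181), with an adjusted p of 0.109 in edgeR. In CPM, 11% of all tested genes were lower in every knockout than in every control. In the same pathway list 8 genes were higher at that unadjusted p. Of the olfactory and vomeronasal receptor genes, 9 had at least 5 counts in control 1 and 7 in control 2. The part of such counts in the control levels of Exoc8 and Rock1 was not tested.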
